A study of Mus musculus with 6 samples.

Results

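Cystatin C and 3 cathepsins are described here, the genes Cst3, Ctsl, Ctsb and Ctsc, as measured in cultured mouse airway smooth muscle cells with and without overexpression of the beta2-adrenergic receptor. Their probes are all those that the platform annotation assigns to these symbols, 4 of 5755 named genes and 5 of the 8734 probes on the array: 2 for Ctsb and 1 each for the other genes. The genes were selected on their log2 ratios between transgenic and nontransgenic cells in these same arrays, so those ratios are given as a description. Their calls in the fit are counted only beside the share over all rows and are not used as evidence. Each of the 6 arrays set RNA of transgenic cells (2AR-OE in the labels) directly against RNA of nontransgenic cells (NTG). The dye on transgenic RNA was Cy5 for 4 arrays (2A, 2B, 1A, 1B) and Cy3 for the others (2C, 1C). Arrays that share a number in their title are called a set. Both kinds of cells grew out of tracheal explants, those of 1 trachea to a dish, in medium with 20% serum, and RNA was taken at passages 8 to 10. More than 90% of cells in such cultures stain for smooth muscle actin, per the labels. The sources used here do not give the promoter of the transgene, the strain or age of the mice, or the number of animals behind an array. Nothing shows that the arrays are separate cultures, so p-values cover the spread from array to array, and that spread may be technical.

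Cathepsins B, L and C are cysteine proteases of the papain family. They are made as inactive precursors, carry mannose 6-phosphate tags that route them to the lysosome, and become active at its low pH. Cystatin C is a small secreted protein that binds the active site of such proteases and blocks them. Outside the cell, cathepsins B and L can cut matrix proteins such as fibronectin and laminin. This is why they and their inhibitor are followed in the walls of airways and vessels.

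All values are log2 ratios of the 2 channels, with no spot intensity behind them, so neither the level of a gene nor its distance from background is known; the number of arrays is the measure of precision. The ratio is likely transgenic over nontransgenic, since channel 1 of 4 of the 6 arrays holds transgenic RNA in Cy5. The titles of those arrays name nontransgenic RNA first, the labels do not state the direction, and the signs mirror if the ratio runs the other way. Columns 2C and 1C were taken as already turned to the common direction, which the labels do not state either. Arrays of equal orientation correlated with r from 0.313 to 0.697 over all probes, and arrays of opposite orientation with r from 0.009 to 0.179. For 47 probes, the ratios of arrays 2A, 2B, 1A and 1B had 1 sign and lay beyond 2-fold. Of these probes, 40 kept their sign in both 2C and 1C, 6 had the opposite sign in both, and 1 was mixed. Whether columns 2C and 1C had been turned was not tested directly. If they were not turned, the ratios below hold a dye bias. Array 1C scattered most, with a robust standard deviation of 0.547 over all probes, against 0.281 to 0.411 on the other 5. Set 2 ran from 0.281 to 0.319 and set 1 from 0.350 to 0.547. No value of the 4 genes was missing or at the lower limit of the table. The receptor's own ratio is not analysed here.

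Cst3, the inhibitor, stood highest of the 4 genes on every array. Its probe 402614 gave log2 ratios of 1.25, 1.36 and 1.26 on arrays 2A, 2B and 2C and of 2.34, 2.16 and 2.01 on arrays 1A, 1B and 1C. All 6 values were positive, and the sets did not overlap. The limma fit, which weighs both dye orientations equally, gave a log2 ratio of 1.71 ± 0.20 (SE, n = 6), or 3.27-fold higher in transgenic cells. Single arrays ran from 2.38-fold to 5.08-fold. In the order of all 6807 fitted rows (probes of 1 symbol averaged) Cst3 was number 8 from the top. With the signs of 1C and 2C turned its log2 ratio was 0.071, number 2398 from the top.

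Ctsl encodes cathepsin L, an endopeptidase. Probe 315082 had log2 ratios of 0.64, 0.75 and 0.43 on arrays 2A, 2B and 2C and of 1.47, 1.40 and 1.07 on arrays 1A, 1B and 1C. Its ratio was positive on 6 of 6 arrays, and again every array of set 1 lay above every array of set 2. The fitted log2 ratio was 0.91 ± 0.16 (SE, n = 6), or 1.875-fold. The Cst3 log2 ratio exceeded that of Ctsl on each array, by 0.61 to 0.94 with a mean of 0.77 ± 0.14 (SD, n = 6). This gap varied less between arrays than either gene did, whose standard deviations were 0.50 for Cst3 and 0.42 for Ctsl.

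Ctsb encodes cathepsin B, which cuts inside proteins and also removes dipeptides from their carboxyl end. Its probes are annotated to the same transcript and gave different ratios. Probe 437755 was at 0.39, 0.70 and 0.34 on arrays 2A, 2B and 2C and at 0.77, 1.09 and 1.03 on arrays 1A, 1B and 1C. Probe 749506 was at 0.47, 0.38 and 0.32 on arrays 2A, 2B and 2C and at 0.017, -0.020 and -0.015 on arrays 1A, 1B and 1C. The first probe was thus higher in set 1 without overlap, like Cst3 and Ctsl, while the second was near 0 there and positive in set 2. Fitted singly, probe 437755 gave a log2 ratio of 0.71 ± 0.14 and probe 749506 gave 0.18 ± 0.10 (SE, n = 6 each).

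The difference of probe 437755 minus probe 749506 averaged 0.53 ± 0.51 (SD, n = 6) on the log2 scale and was positive on 5 of 6 arrays. A two-sided exact sign-flip permutation test over the 6 arrays gave p = 0.0938, where 0.0313 is the smallest value it can give; 1 pair of probes was tested. The difference averaged 0.087 in set 2 and 0.97 in set 1, and the test counted each array singly, without regard to the sets. Among 1061 genes with 2 fitted probes, 15.3% had a larger gap between their probes than Ctsb, and the median gap was 0.20. The mean of the Ctsb probes was steadier than either, at 0.43, 0.54 and 0.33 on arrays 2A, 2B and 2C and 0.39, 0.54 and 0.51 on arrays 1A, 1B and 1C. Its fitted log2 ratio was 0.45 ± 0.06 (SE, n = 6), or 1.36-fold. Opposite set differences cancel in that mean, so its small spread does not describe a single probe.

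Ctsc encodes cathepsin C, also called dipeptidyl peptidase I, which removes dipeptides from the amino end of proteins and activates serine proteases stored in granules of leukocytes and mast cells. It was the 1 gene of the 4 with lower ratios in transgenic cells. Probe 876326 had log2 ratios of -0.43, -0.52 and -0.80 on arrays 2A, 2B and 2C and of -0.31, -0.21 and -1.46 on arrays 1A, 1B and 1C. All 6 values were negative and the sets overlapped. The lowest value on each set came from the array with transgenic RNA in Cy3. The fitted log2 ratio was -0.75 ± 0.11 (SE, n = 6), or 1.68-fold lower. Without array 1C, where Ctsc was lowest, it was -0.58, and over the Cy5 arrays alone it was -0.37.

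**Figure D1:**
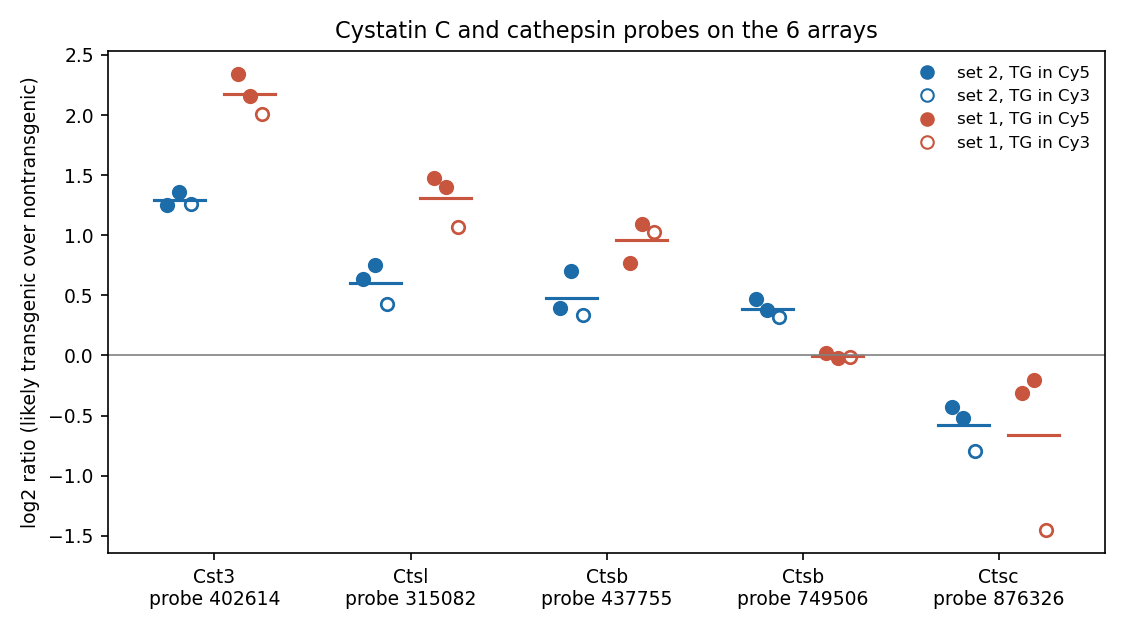
Log2 ratios (vertical axis, likely transgenic over nontransgenic) of the 5 probes of Cst3, Ctsl, Ctsb and Ctsc on each of the 6 arrays; filled circles are arrays with transgenic RNA in Cy5, open circles those with it in Cy3, and lines are set means. Cst3 lies at 1.25 or higher on all arrays and Ctsc below 0 on all; Cst3, Ctsl and Ctsb probe 437755 are higher in set 1, and Ctsb probe 749506 is higher in set 2.

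The fit called 4 of the 4 genes at a Benjamini-Hochberg adjusted p under 0.05, against 7.11% of all rows (484 of 6807). In the higher direction it called 3, Cst3, Ctsl and Ctsb, against 4.03% of rows, and in the lower direction Ctsc, against 3.09%. These calls were among the values that chose the genes, so the counts say nothing more about them. When the set entered as a random replicate block, 1 of the 4 and 2.89% of all rows were called. Without array 2A, 2B or 1C the fit called 1 of the 4 and 2.49%, 2.57% or 2.79% of rows. It called 2 of the 4 and 3.00% of rows without 1B, and 3 and 3.68% without 1A. With array weights the fit called 2 of the 4 and 2.34% of rows, so the count did not follow the share over all rows throughout.

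Whether the ratio differed between sets was a contrast that the choice of genes did not use. The log2 ratio of Cst3 averaged 1.29 ± 0.059 in set 2 and 2.17 ± 0.17 in set 1 (SD, n = 3 each), a fitted difference of -0.88 ± 0.10 (SE). That of Ctsl averaged 0.61 ± 0.16 in set 2 and 1.31 ± 0.21 in set 1, a difference of -0.71 ± 0.09. Both had an adjusted p of 0.0716 by limma, the lowest of any row, and did not pass; 48 rows had an unadjusted p as low as that of Cst3. None of the rows passed for this contrast (0% of 6807), while 1616 had an unadjusted p under 0.05. The Ctsb mean differed by -0.045 ± 0.10 (adjusted p = 0.810) and Ctsc by 0.076 ± 0.21 (adjusted p = 0.847).

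Taken singly, Ctsb probe 437755 differed by -0.49 ± 0.16 between sets (adjusted p = 0.161) and probe 749506 by 0.40 ± 0.08 (adjusted p = 0.0821). With probes of a symbol averaged, sets without overlap were seen for 2 of the 4 genes, Cst3 and Ctsl, and in 25.2% of the 6756 rows with values on all arrays. Set 1 had the wider spread over all probes, and Cst3, Ctsl and Ctsb probe 437755 had the larger ratios there, but probe 749506 had the smaller. After the arrays were scaled to equal spread, the difference of Cst3 was -0.31 (adjusted p = 0.504) and that of Ctsl -0.42 (adjusted p = 0.174), while that of the Ctsb mean changed sign to 0.12 (adjusted p = 0.455) and that of Ctsc to -0.22 (adjusted p = 0.267).

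The dye contrast asked whether the ratio depended on which dye carried transgenic RNA. The log2 ratio of Ctsc averaged -0.37 on arrays with transgenic RNA in Cy5 and -1.13 on arrays with it in Cy3, which is a fitted dye coefficient of 0.38 ± 0.11 (SE; a coefficient is this difference divided by 2). Its unadjusted p was 0.0120 and its adjusted p 0.201 by limma. Cst3 averaged 1.78 with transgenic RNA in Cy5 and 1.64 with it in Cy3 (coefficient 0.071 ± 0.20, adjusted p = 0.863). Ctsl averaged 1.06 with transgenic RNA in Cy5 and 0.75 with it in Cy3 (0.16 ± 0.16, adjusted p = 0.612). The Ctsb mean was 0.48 with transgenic RNA in Cy5 and 0.42 with it in Cy3 (0.029 ± 0.064, adjusted p = 0.820). None of the 4 passed, against 0.0147% of all rows (1 of 6807); 1242 rows had an unadjusted p under 0.05.

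The start regions of Cst3, Ctsl and Ctsc are shown to set genes with positive ratios on every array beside one with negative ratios; that of Ctsb is not shown. They are RefSeq windows on GRCm38.p6, 250 bases before to 50 bases after the annotated start; the probes carry no coordinates. Capitals mark matches, on either strand, to the motifs searched: the E-box CACGTG, which is bound by lysosomal regulators of the TFEB family, the cyclic AMP response element TGACGTCA with the shorter TGACG, which every full element contains, and the GC box GGGCGG. The windows lie at chr2:148875463-148875762 on the minus strand for Cst3, chr13:64370471-64370770 on the minus strand for Ctsl and chr7:88277835-88278134 on the plus strand for Ctsc.
Cst3: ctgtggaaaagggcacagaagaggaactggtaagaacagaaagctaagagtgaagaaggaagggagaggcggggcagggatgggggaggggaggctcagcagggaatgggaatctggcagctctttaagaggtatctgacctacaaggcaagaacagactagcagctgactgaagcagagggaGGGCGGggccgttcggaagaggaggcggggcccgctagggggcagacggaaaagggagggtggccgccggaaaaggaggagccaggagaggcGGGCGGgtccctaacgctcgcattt
Ctsl: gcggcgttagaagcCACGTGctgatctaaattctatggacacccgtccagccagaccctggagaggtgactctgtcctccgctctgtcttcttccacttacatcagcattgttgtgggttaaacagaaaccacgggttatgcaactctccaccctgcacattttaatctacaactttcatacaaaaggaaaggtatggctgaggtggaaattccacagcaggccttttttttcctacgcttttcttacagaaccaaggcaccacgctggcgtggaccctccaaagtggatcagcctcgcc
Ctsc: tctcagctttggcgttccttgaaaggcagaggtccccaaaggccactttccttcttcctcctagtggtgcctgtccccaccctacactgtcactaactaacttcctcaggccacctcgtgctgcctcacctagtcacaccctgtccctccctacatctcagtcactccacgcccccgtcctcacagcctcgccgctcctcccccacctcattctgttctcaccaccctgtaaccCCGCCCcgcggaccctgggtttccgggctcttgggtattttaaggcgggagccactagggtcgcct

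The Ctsl window held 1 CACGTG, beginning 236 bases before the start, a motif found in 7.15% of the 32851 windows in the table. The Cst3 window held 2 matches to GGGCGG and the Ctsc window held 1, read on the opposite strand as CCGCCC; 35.7% of all windows hold that motif. The letters of TGACGTCA and TGACG were in none of the 3 windows; they are in 1.79% and 20.8% of all windows. The G and C content was 60.3% for Cst3, 50% for Ctsl and 60.3% for Ctsc, where the median window had 52.7%. A match is a run of letters and was not tested as a binding site. Whether transcription began at the annotated starts in these cells was not tested either, so a window need not be the promoter in use.

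The genes whose ratios over the 6 arrays lay nearest to each of these genes were found by the root-mean-square difference of log2 ratios among 5614 candidate genes. For Cst3 they were Dkk3, a secreted Dickkopf family protein (0.25), Tnc, the matrix protein tenascin C (0.26), and Rasl11a, a Ras-like GTPase (0.32); the median candidate was at 1.82. For Ctsl they were Cpe, the prohormone-processing carboxypeptidase E (0.064), the interferon-inducible Ifitm2 (0.087) and Rasa3, a GTPase-activating protein (0.11), against a median of 1.09. Cpe followed Ctsl closely, with 0.57, 0.70 and 0.50 on arrays 2A, 2B and 2C and 1.49, 1.35 and 1.16 on arrays 1A, 1B and 1C.

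For the Ctsb mean the nearest genes were Plgrkt, a plasminogen receptor (0.062), B3galnt1, a glycosyltransferase (0.062), and Hipk2, a nuclear protein kinase (0.077), against a median of 0.57. For Ctsc they were Ddx21, an RNA helicase of the nucleolus (0.12), Mcm5, a subunit of the replicative helicase (0.12), and Tars, the threonyl-tRNA synthetase (0.15), against a median of 0.82. All 3 shared the low value on array 1C, from -1.46 to -1.40, where Ctsc was at -1.46. None of the 4 described genes was among the 3 nearest genes of another. These are descriptions over 6 arrays that share their spread, and the nearest genes of a value close to 0 are nearer by construction.

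**Figure D2:**
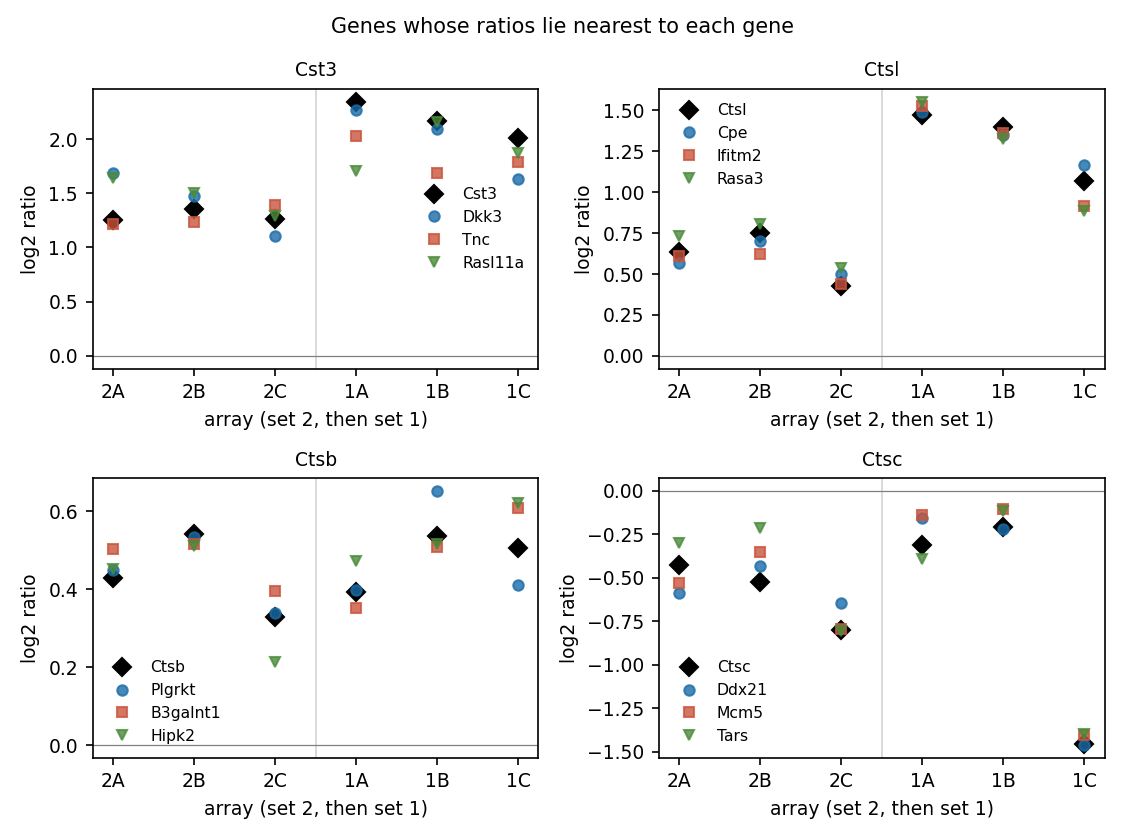
Log2 ratios (vertical axes) on the 6 arrays (horizontal axes, set 2 and then set 1) of Cst3, Ctsl, Ctsb and Ctsc (black diamonds) and of the 3 genes nearest to each by root-mean-square difference. The Ctsl panel shows all 4 genes higher in set 1, and the Ctsc panel shows all 4 genes lowest on array 1C.

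The other measured cysteine cathepsins had positive fitted log2 ratios. Of these 3 genes, Ctsm rose and Ctss and Ctsz did not pass, with a median log2 ratio of 0.39 against 0.0018 over all 6807 rows. Ctsm, a cathepsin known from the mouse placenta, was at 0.77 ± 0.14 (SE, adjusted p = 0.0324) with values from 0.39 to 1.38, and its probes gave 0.81 and 0.74, of which the second did not pass singly (adjusted p = 0.0572). The Ctsm call was lost with the set as a random block, that is with an estimated correlation (adjusted p = 0.0652). Ctss, cathepsin S, was at 0.39 ± 0.20 (adjusted p = 0.260) and Ctsz, the carboxypeptidase cathepsin Z, at 0.18 ± 0.14 (adjusted p = 0.430). Ctsz ran from -0.12 to -0.0045 on set 2 and from 0.31 to 0.68 on set 1.

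Other members of the cystatin superfamily did not pass the test, 0 of 5 by limma, with 1 at an unadjusted p under 0.05, with a median log2 ratio of 0.080. Cstb, the intracellular inhibitor stefin B, was at 0.40 ± 0.15 (SE, adjusted p = 0.151), positive on 5 of 6 arrays. Cst6, cystatin E/M, was at 0.17 ± 0.19 (adjusted p = 0.579) and Stfa2l1, a stefin A relative, at 0.080 ± 0.065 (adjusted p = 0.453). Fetub, the serum protein fetuin-B, was at -0.13 ± 0.09 (adjusted p = 0.357), and Kng2, a kininogen, at -0.57 ± 0.31 (adjusted p = 0.282). Cst3 thus had the highest log2 ratio among the 6 measured genes of its superfamily, a difference that was not tested. With the signs of 1C and 2C turned it did not, as Fetub was then at 0.32, Cstb at 0.22 and Cst3 at 0.071.

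Of 4 measured peptidases of the lysosome outside the papain family, 3 rose in transgenic cells and 0 fell, with a median log2 ratio of 0.57. Scpep1, a serine carboxypeptidase, was at 0.88 ± 0.15 (adjusted p = 0.0250), with 0.63, 0.70 and 0.42 on arrays 2A, 2B and 2C and 1.20, 1.25 and 1.20 on arrays 1A, 1B and 1C. Tpp1, tripeptidyl peptidase 1, was at 0.55 ± 0.07 (adjusted p = 0.0109) with a range of 0.40 to 0.71. Its 3 probes gave 0.47, 0.55 and 0.62, and the first of these, tested singly by limma, did not pass (adjusted p = 0.117). That probe was at 0.014, 0.05 and 1.32 on arrays 1A, 1B and 1C, where the second was at 0.88, 0.89 and 0.21. These opposite patterns partly cancel in the mean, so its small range does not describe each probe. Cpq, the dipeptidase called carboxypeptidase Q, was at 0.59 ± 0.07 (adjusted p = 0.0113), and Prcp, prolylcarboxypeptidase, was at 0.26 ± 0.08 (adjusted p = 0.115).

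Among genes of lysosomal sorting and processing, 1 of 10 rose and 0 fell, with a median of 0.091. This was Vps26a, a subunit of the retromer coat that returns sorting receptors to the Golgi (0.55 ± 0.11, adjusted p = 0.0395). The call was lost under the random replicate block (adjusted p = 0.139) and without any 1 of the 5 arrays other than 1A. Its value on array 1A was 1.11, against 0.36 to 0.52 on the other 5. Igf2r, a mannose 6-phosphate receptor, was at -0.14 ± 0.08 (adjusted p = 0.297). Of 8 genes of the lysosomal membrane and its proton pump, Lamp1, a major membrane glycoprotein, rose (0.62 ± 0.11, adjusted p = 0.0316) and 0 fell, with a median of 0.10. Under the random replicate block Lamp1 did not pass (adjusted p = 0.0602).

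Of 11 lysosomal hydrolases of lipids and glycans, 3 rose and 0 fell, with a median of 0.27. Asah1, acid ceramidase, was at 0.90 ± 0.12 (adjusted p = 0.0122), Gla, alpha-galactosidase A, at 0.56 ± 0.06 (adjusted p = 0.00936) and Lipa, lysosomal acid lipase, at 0.52 ± 0.07 (adjusted p = 0.0119). Of the Lipa probes tested singly, 618910 did not pass (0.47, adjusted p = 0.0504). The 3 measured regulators of lysosomal genes, Tfe3, Mtor and Rragc, did not pass by limma (1 of them had an unadjusted p under 0.05) and had a median of 0.085. Over all 36 measured lysosomal peptidases, hydrolases, membrane and sorting genes other than the described cathepsins, 9 rose and 0 fell, 25% against 7.11% of all rows, and 28 of the 36 ratios were positive, with a median of 0.24. Under the random replicate block 6 rose and 0 fell, 16.7% against 2.89% of all rows. With 1 array left out the share called ran from 11.1% (4 genes, without 2A or 1C) to 38.9% (14 genes, without 2C), where 2.49%, 2.79% and 24.9% of all rows were called. The lists were drawn up with earlier results of these arrays known, so this share is no independent evidence of their direction.

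**Figure D3:**
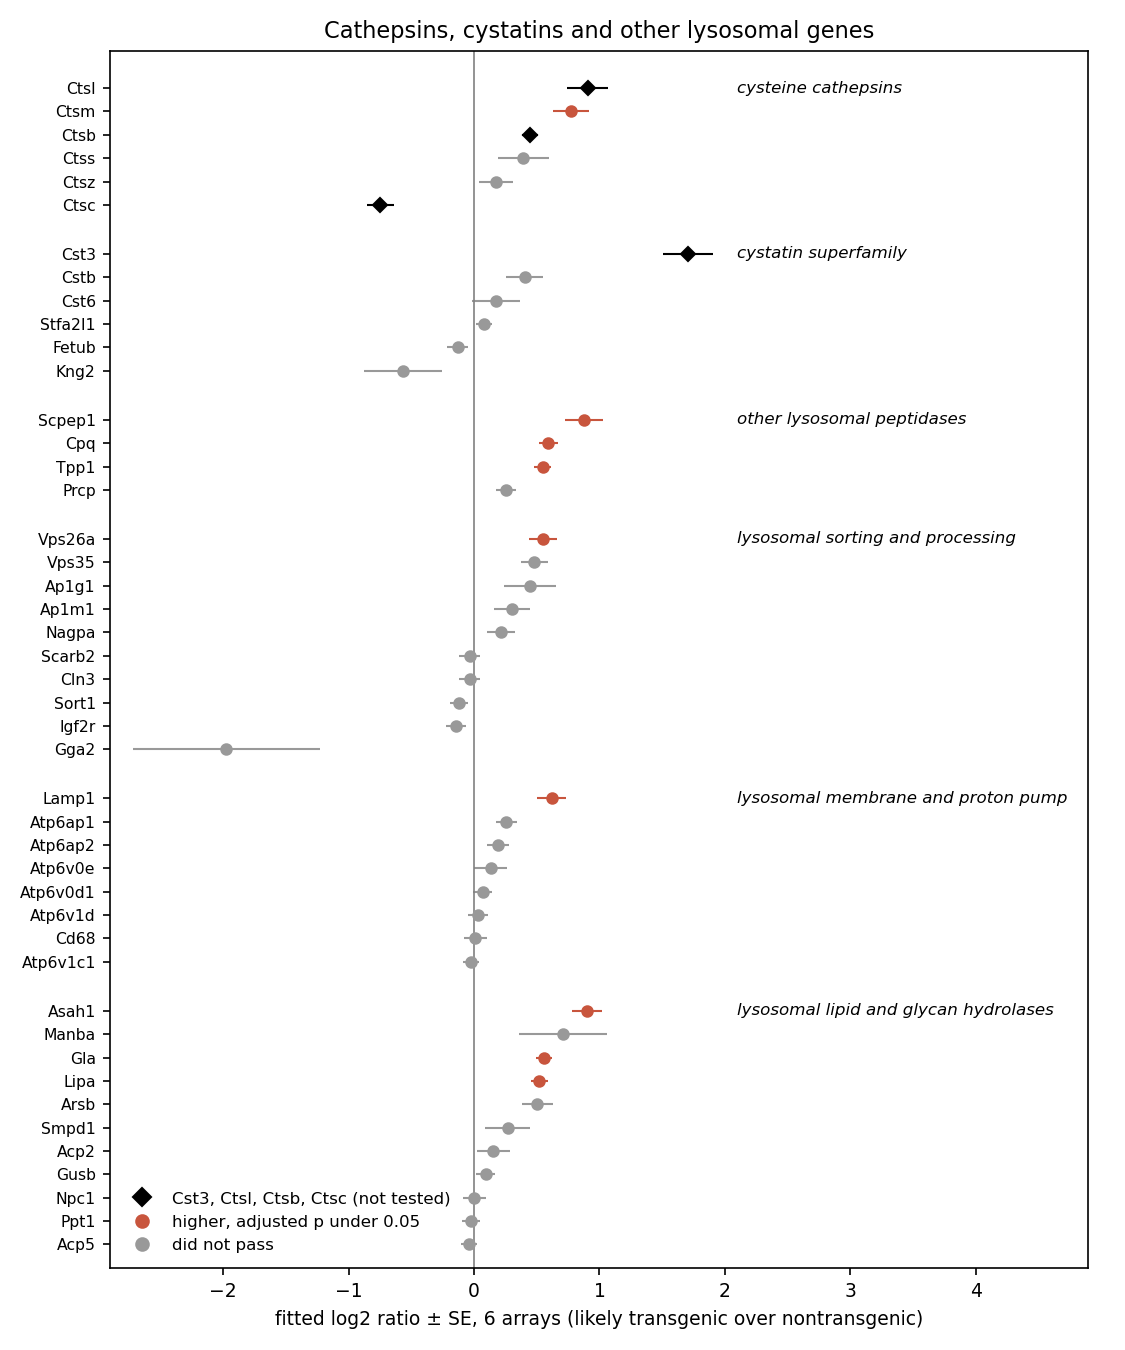
Fitted log2 ratios (horizontal axis) with standard errors over 6 arrays for cathepsins, cystatins and other lysosomal genes by list; black diamonds are Cst3, Ctsl, Ctsb and Ctsc, red circles passed the test and grey circles did not. The 9 red genes all lie above 0, Cst3 is the highest and Ctsc lies below 0; the wide bar of Gga2 comes from 1 value at the lower limit of the table.

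Granule serine proteases, a class that includes substrates of cathepsin C, were measured for 5 genes. Of these 1 fell and 0 rose, with a median of -0.074. Gzmf, granzyme F, was at -2.66, -2.20 and -2.31 on arrays 2A, 2B and 2C and at -1.11, -1.91 and -2.12 on arrays 1A, 1B and 1C. All 6 values were negative and the fitted log2 ratio was -2.09 ± 0.21 (adjusted p = 0.00644). Gzmb, granzyme B, was at 0.91 ± 0.32 (adjusted p = 0.136), and Prtn3, Cma1 and Tpsb2 did not pass either.

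Matrix proteins that cysteine cathepsins can cut showed 1 call in 11, and the list's median was -0.015. Fn1, fibronectin, fell (-0.83 ± 0.06, adjusted p = 0.00412), with all 6 arrays between -0.90 and -0.76. Eln, elastin, was at -0.31 ± 0.11 (adjusted p = 0.141). Of 12 matrix metalloproteinases, plasminogen system genes and inhibitors, Timp3, an inhibitor of metalloproteinases, fell (-0.55 ± 0.10, adjusted p = 0.0326) and 0 rose, with a median of 0.080. Timp3 did not pass under the random replicate block (adjusted p = 0.115). Mmp14, a membrane-bound metalloproteinase, was at 1.21 ± 0.30 (adjusted p = 0.0685), positive on 6 of 6 arrays. Timp2, another inhibitor of this class, was at 0.61 ± 0.17 (adjusted p = 0.0884).

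Over all these lists 12 of 72 measured genes other than the 4 described were called, 16.7% against 7.11% of all rows. Without array 2A the count was 6 (8.33% against 2.49% of all rows), without 1B or 1C it was 7, without 1A or 2B it was 8, and without 2C it was 25 (34.7% against 24.9% of all rows). Ctsm, Scpep1 and Lamp1 each lost the call without any 1 of the 5 arrays other than 2C. Timp3 lost it without 2A, 2B, 1A or 1B, Asah1 without 1C (adjusted p = 0.0662) and Lipa without 2A (adjusted p = 0.0510). Under the random replicate block 8 genes were called, 11.1% against 2.89% of all rows.

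Macrophages carry much cathepsin, and markers of other cell types that an explant can hold were examined beside these results. Of 11 macrophage and leukocyte genes 0 passed by limma (unadjusted, 4 had p under 0.05); the median was -0.066 and the fitted ratios ran from -0.48 to 0.50. Cd68, a macrophage lysosomal protein, was at 0.011 ± 0.091 (adjusted p = 0.944). The ends of that range were Tyrobp, a leukocyte signalling adaptor, positive on 6 of 6 arrays (0.50 ± 0.15, adjusted p = 0.0993), and Cd53, a leukocyte tetraspanin, negative on 5 of 6 (-0.48 ± 0.13, adjusted p = 0.0803). Of 6 fibroblast genes Thy1 (2.73 ± 0.21) and Mfap5 (0.81 ± 0.07) rose and 4 did not pass. By limma, 5 of the 6 had an unadjusted p under 0.05. The median of the 6 genes was 0.76, and the fitted ratios ran from -0.30 to 2.73. Of 5 smooth muscle genes Vcl (1.15 ± 0.14) and Cnn1 (0.59 ± 0.10) rose, while Smtn (-0.053), Tpm1 (-0.16) and Cald1 (-0.12) did not pass, and the median was -0.053. Of 5 epithelial genes Cdh1 rose (0.32 ± 0.06; median 0.074), of 5 cartilage genes Col11a1 fell (-1.10 ± 0.09; median -0.25), and of 7 endothelial genes 0 passed by limma (3 had an unadjusted p under 0.05; median -0.37). Cnn1 and Cdh1 lost the call without any 1 of the 5 arrays other than 2C, and Vcl without 1C. Under the random replicate block Cnn1 (adjusted p = 0.0602) and Cdh1 (adjusted p = 0.101) did not pass.

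Without intensities it cannot be said which of these markers were expressed, so the labelled cell type could not be checked against its defining genes. Fewer cells of a type and less RNA per cell cannot be told apart in such bulk samples. The part of cell composition in the ratios of Cst3 and the cathepsins was not tested.

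**Figure D4:**
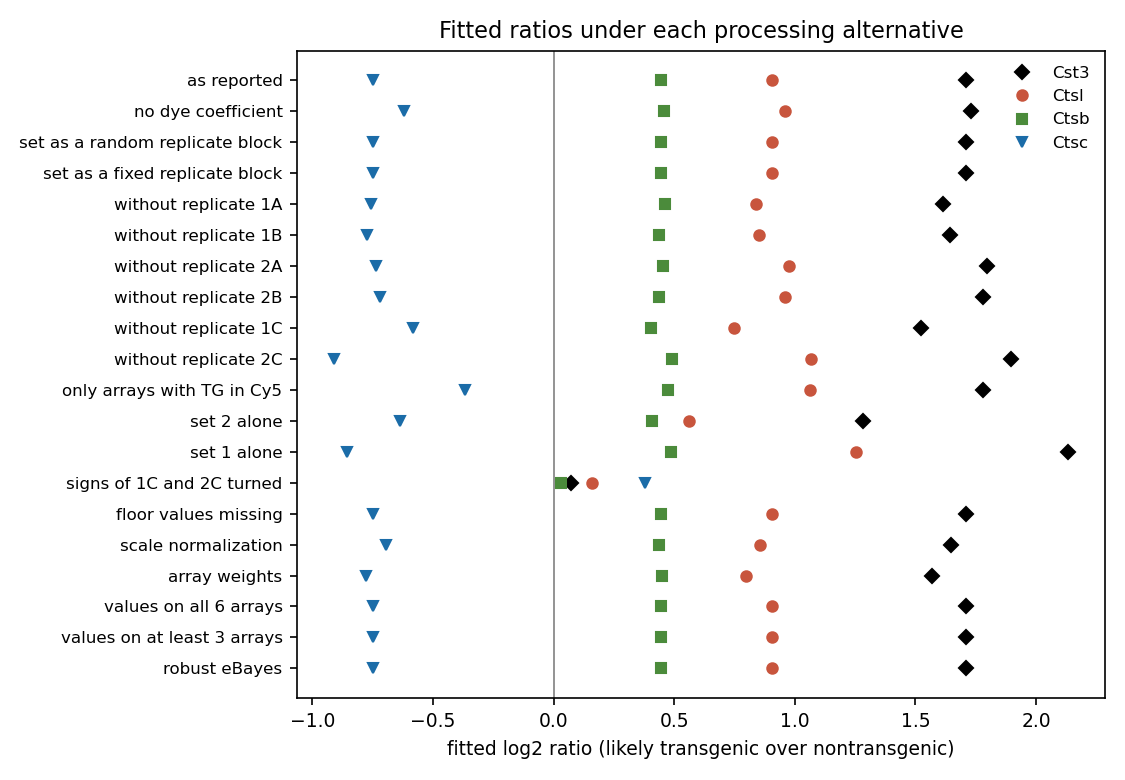
Fitted log2 ratios (horizontal axis) of Cst3, Ctsl, Ctsb and Ctsc as reported and under 19 processing alternatives (vertical axis). The order of the 4 genes and the sign of each hold in every row except where the signs of arrays 1C and 2C are turned, where all 4 values lie between 0.029 and 0.38.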

How the data were processed

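Each of the 6 two-colour arrays gave 1 deposited log2 ratio per probe; per the labels' protocols, cDNA of both RNAs was dyed with Cy3 or Cy5 and competed for the probes. The sources used here do not name the scanner, background correction, normalization or filters. Deposited log2 values had array medians between -0.0012 and 0.0007 and a lower limit at the log2 of a ratio of 0.01. Between 8495 and 8555 probes had a value on an array, and the depth behind a ratio is unknown.

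Of 8734 probes the platform annotation gave 7540 a single symbol, 14 several and 1180 none. Probes sharing a symbol were averaged within an array, and rows needed 4 or more arrays covering both orientations. All rows were fitted with limma 3.58.1 in R 4.3.3 (lmFit, eBayes), with a transgenic and a dye coefficient and Benjamini-Hochberg adjusted p under 0.05, and with a further term for the set difference. The script was tested on simulated data. Genes, lists and alternatives were chosen with earlier results of these data known. Named genes are the 4 described genes, every measured cathepsin, cystatin and lysosomal peptidase, every called gene of the other lists, and the 3 nearest genes of each; Igf2r, Tfe3, Mtor, Rragc, Gga2, Gzmb, Prtn3, Cma1, Tpsb2, Eln, Mmp14, Timp2, Cd68, Tyrobp, Cd53, Smtn, Tpm1, Cald1, the called marker genes and Vps35, Arsb, Col1a1, Manba and Ap1g1 were added after their values were seen. Alternatives covered the dye term, sets, arrays left out, signs of swapped columns, scaling, weights, filters and single probes. Other work used Python 3.11.15, numpy 2.4.6, pandas 2.3.3, scipy 1.17.1 and matplotlib 3.10.9.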

Additional observations from a re-analysis of the deposited data

Results flagged for a closer look

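Among the probes of the 4 described genes and all other named genes, 132 groups of values (the 4 arrays with transgenic RNA in Cy5, or all 6 arrays, of a gene) were checked for a single array far from the rest. Of these 10 stood out, with Vps26a counted in both groupings. Col1a1, Manba, Ap1g1, Gga2 and Gzmb, which are among them, were named after their values were seen. Both groupings also share arrays, so the count is not set against a chance rate. Vps26a on array 1A (1.11) stood apart from the other arrays with transgenic RNA in Cy5 (0.49 to 0.52) and from all the other 5 arrays (0.36 to 0.52). B3galnt1 on array 1A (0.35) lay below the other arrays with transgenic RNA in Cy5 (0.50 to 0.52).

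The other 7 stood out on array 1C against the other 5 arrays. Lipa was at 0.25 on 1C and from 0.54 to 0.70 elsewhere, and Cst6 at 1.15 and from -0.45 to 0.074. Col1a1, the alpha-1 chain of collagen I, was at -3.28 on 1C and from -1.01 to 0.24 elsewhere. Manba, the lysosomal beta-mannosidase, was at 2.67 on 1C and from -0.25 to 0.30 elsewhere, and Gzmb at 2.73 and from -0.35 to 0.67. Ap1g1, a subunit of the adaptor that sorts cargo at the trans-Golgi, was at 1.72 on 1C and from -0.10 to 0.10 elsewhere. Gga2, a sorting adaptor, was at the lower limit of -6.64 on 1C and from -1.09 to 0.42 elsewhere.

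Some genes changed sign between groups of arrays. Cst6 and Ctsz were negative on every array of set 2 and positive on every array of set 1, with differences of -0.68 for Cst6 and -0.55 for Ctsz. Tpm1 was positive on every array of set 2 and negative on every array of set 1, a difference of 0.90. None of the 3 passed in the limma fit of the set difference, where no row did. Fetub was positive on all 4 arrays with transgenic RNA in Cy5 and negative on both with it in Cy3. Tfe3 and Smtn were negative on those 4 arrays and positive on both others. The mean of the swapped arrays minus that of the others was -0.64 for Fetub, 1.14 for Tfe3 and 0.39 for Smtn. Their dye coefficients by limma were 0.32 ± 0.09 (SE, adjusted p = 0.191) for Fetub, -0.57 ± 0.17 (adjusted p = 0.207) for Tfe3 and -0.20 ± 0.08 (adjusted p = 0.276) for Smtn. No value of Cst3, Ctsl, Ctsb or Ctsc stood out in these ways.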

How the results depend on the processing

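The fitted log2 ratios moved by less than 1 SD between arrays under 18 of 19 alternatives for Cst3, Ctsl and Ctsc. For the Ctsb mean this held under 18 of 21, and its probes fitted singly (0.71 and 0.18) each moved further. That SD includes the gap between sets, and blocks for the set and filters on the number of arrays left these ratios unchanged. The counts therefore do not measure robustness. Cst3 at 1.28 in set 2 alone and 2.13 in set 1 alone counted as within 1 SD, as did Ctsc at -0.37 on the Cy5 arrays alone. With 1 array left out the fitted ratios ran from 1.52 to 1.90 for Cst3, 0.75 to 1.07 for Ctsl, 0.40 to 0.49 for Ctsb and -0.91 to -0.58 for Ctsc. With the signs of arrays 1C and 2C turned, which by construction exchanges the transgenic and dye terms, they became 0.071 for Cst3, 0.16 for Ctsl, 0.029 for Ctsb and 0.38 for Ctsc; Tpp1 became -0.0086, Gzmf 0.12, Fn1 0.017, Thy1 -0.098 and Col11a1 0.27, and 1 row and 0 listed genes were called. Ctsb probe 749506 was at -0.0082 in set 1 alone. The set difference changed sign with scaling for Ctsb (0.12) and Ctsc (-0.22) and was 0.40 at Ctsb probe 749506; these did not pass.

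The 484 called rows became 197 with sets as a random replicate block, 1168 with them as a fixed replicate block, 1049 on the Cy5 arrays alone, 907 in set 2 alone, 1057 in set 1 alone and 159 with array weights; with 1 array left out they ran from 169 to 1689. The 12 listed genes called became 25 with the fixed block, 23 in set 1 alone and 5 with array weights, and 6 to 25 with 1 array left out. The cause of these shifts was not tested. The other alternatives kept both counts within 1.5 times.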

Other observations

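Vps35 and Arsb were chosen after their values were seen. Vps35, which with Vps26a belongs to the retromer, had positive log2 ratios on 6 of 6 arrays and a fitted value of 0.48 ± 0.11 (SE, limma adjusted p = 0.0568). Arsb, the lysosomal arylsulfatase B, was likewise positive on 6 of 6 arrays, at 0.51 ± 0.12 (adjusted p = 0.0685).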
